A study of Homo sapiens with 6 samples.

Results

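Tyrosine is broken down in a chain of enzymes that is best known from liver and kidney. Tyrosine aminotransferase (TAT) removes the amino group, HPD turns the resulting keto acid into homogentisate, homogentisate 1,2-dioxygenase (HGD) opens its ring, GSTZ1 isomerises the product and FAH splits it into fumarate and acetoacetate. Inherited loss of HGD causes alkaptonuria, in which homogentisate accumulates, and inherited loss of FAH, TAT or HPD causes tyrosinaemia. The 5 genes HGD, HPD, FAH, GSTZ1 and TAT were followed here, found by their symbols among the 19973 genes of the deposited table. HGD was picked because its read count differed strongly between shNUF2 and shNC in these libraries, and the other 4 because they encode the rest of the chain. The values of these 5 genes between the groups are therefore given as a description, without a p-value.

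RNA was sequenced from OVCAR3, an established human epithelial ovarian cancer cell line, in 6 libraries. Cells of the shNC group (genotype WT) carried a control hairpin, and cells of the shNUF2 group (genotype NUF2 knockdown) carried a hairpin against the kinetochore gene NUF2. Both groups were transfected, and the NUF2 hairpin was carried by a plasmid whose name gives a U6 promoter and puromycin. The study describes stable OVCAR3 cells with silenced NUF2, but how they were selected, and whether they were 1 clone, is not given in the sources used here. Each group had 3 libraries, which these sources do not tie to separate cultures, so p-values measure only the spread between these libraries. Total counts lay between 13057534 and 16995452 reads per library. NUF2 had 903, 1096 and 1092 reads under shNC, against 281, 290 and 384 under shNUF2, a log2 fold change of -1.51 (SE 0.08, edgeR adjusted p = 2.17e-15).

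The cells carried markers of ovarian carcinoma epithelium, led by KRT7, at a summed 1560 to 1650 CPM (read counts scaled to library size, after TMM correction) with shNC and 1730 to 1840 with shNUF2, although CLDN3 had 0 reads in every library and WT1 and KRT19 at most 8. By adjusted p, 5 of the 8 tested members of this list rose and 3 fell, where 33.9% of all genes tested rose and 33.8% fell. KRT8 rose from 337 ± 11.1 to 692 ± 31.4 CPM (SD, n = 3 each), and CLDN4 (log2 fold change 1.14), EPCAM (0.69), PAX8 (0.64) and KRT18 (0.55) also rose, whereas KRT7 (-0.22), MUC16 and MSLN (both -0.75) fell. Hepatocyte markers ALB, APOA1 and TTR had 0 reads in every library, and 5 of the 11 listed had at most 3 reads in each. The hepatocyte list summed to 1460 to 1530 CPM with shNC and 360 to 371 with shNUF2, nearly all of it from the urea cycle enzyme CPS1, whose log2 fold change was -2.04 (SE 0.04, edgeR adjusted p = 7.19e-24). CYP2E1 of the same list also fell (-1.27), whereas FGB, with 0, 0 and 0 reads under shNC, had 16, 5 and 19 under shNUF2, and SERPINA1 went from 0, 0 and 1 to 8, 24 and 13, both too low to be tested. The part of these cell type markers in the results below was not tested. Markers of kidney proximal tubule summed to 1.16 to 1.41 CPM with shNC and 2.15 to 2.33 with shNUF2, and LRP2 and SLC22A6 had 0 reads. The sums were 53.8 to 60.2 against 49.4 to 58.2 CPM for melanocyte markers, 84.0 to 90.6 against 69.0 to 76.3 for fibroblast markers and 1.57 to 2.38 against 4.01 to 6.46 for leukocyte markers. These sums are led by 1 gene each and hide other members: beside MITF (-0.02), the melanocyte markers PMEL (-0.92, and -0.62 and not past the test without shNUF2 replicate 3) and MLANA (-0.90) fell, and beside COL1A1 (-0.39), which fell, the fibroblast marker DCN rose (log2 fold change 1.22).

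The sequences below show the shNUF2 guide strand, with its seed (bases 2 to 8) in capitals, and its target, with the bases that pair with the seed in capitals. They are shown because a short hairpin can also bind other transcripts through its seed.
shNUF2 guide strand: aAATTGCTgaatggtaagaag
shNUF2 target: cttcttaccattcAGCAATTt
The 21 bases of the target occurred in the transcripts of 1 gene of GENCODE release 29, NUF2. The seed match there lies on the plus strand of GRCh38 at chr1:163328285-163328291, in the coding sequence in exon 4 of 14. In HGD, the longest run of the target found in the main coding transcript (the one with the longest coding sequence) was 7 bases. The seed match AGCAATT occurred 0 times in the main coding transcripts of HGD, HPD, FAH, GSTZ1 and TAT, whereas 18.9% of 19560 genes hold it somewhere in theirs and 10.2% in the 3′ UTR. Only these letters in these transcripts were searched.

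HGD (ENSG00000113924) lies on the minus strand of chromosome 3 from 120628172 to 120682269 (GRCh38). Its transcript HGD-201 has 14 exons and a coding sequence of 1335 bases, and 0 other annotated genes overlap the locus. HGD had 130, 160 and 190 reads under shNC, against 8, 13 and 7 under shNUF2. All shNUF2 libraries lay far below all shNC libraries. The normalized level averaged 10.1 ± 0.951 CPM for shNC and 0.686 ± 0.279 CPM for shNUF2 (SD, n = 3 each), which is 6.82% of the shNC level. The log2 fold change, shNUF2 over shNC, was -3.88 (SE 0.25), the 3rd lowest of the 12874 genes tested, whose median was -0.01. Fewer cells with the transcript and less transcript per cell cannot be told apart in bulk RNA. The size of the difference moved with single libraries, from -3.66 without shNUF2 replicate 3 to -4.24 without shNUF2 replicate 2.

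TAT (ENSG00000198650, chromosome 16 from 71565660 to 71577092, minus strand) catalyses the entry step. No read of TAT was found with shNC (0 in each library), and shNUF2 gave 2, 4 and 1, too few to be tested. A count of 0 allows up to 3 reads, or 0.0329 to 0.0396 FPKM (fragments scaled to gene length and library size) in the shNC libraries, and the shNUF2 libraries held 0.0122 to 0.0571 FPKM. No fold is given, and the antisense gene TAT-AS1 overlaps the locus.

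HPD (ENSG00000158104, chromosome 12 from 121839527 to 121863596, minus strand) makes homogentisate, the substrate of HGD. It had 9, 21 and 7 reads under shNC, against 10, 6 and 19 under shNUF2. The groups overlapped throughout. HPD averaged 0.785 ± 0.472 CPM for shNC and 0.822 ± 0.407 for shNUF2 (SD, n = 3 each), a log2 fold change of 0.10 (SE 0.49). The sign turned with single libraries, from -0.37 without shNUF2 replicate 3 to 0.70 without shNC replicate 2. At this depth no difference in HPD was detectable in either direction, and an antisense gene overlaps the locus.

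GSTZ1 (ENSG00000100577, chromosome 14 from 77320996 to 77331597, plus strand) acts directly after HGD. It had 83, 88 and 140 reads under shNC, against 45, 34 and 64 under shNUF2. Each shNUF2 library lay below each shNC library, at 3.40 ± 0.822 CPM (SD, n = 3) against 6.49 ± 1.43 (SD, n = 3), or 52.4% of the shNC level. The log2 fold change was -0.93 (SE 0.22). It was just short of the fold threshold of 1 used below, which it passed without shNUF2 replicate 3 (-1.13) or without shNC replicate 2 (-1.04). It was smaller in size without shNC replicate 3 (-0.73) or without shNUF2 replicate 2 (-0.77).

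FAH (ENSG00000103876, chromosome 15 from 80152490 to 80186946, plus strand) performs the last step. Its reads numbered 199, 277 and 293 under shNC, against 302, 298 and 313 under shNUF2. After normalization the groups did not overlap, with 22.0 ± 1.10 CPM in shNUF2 (SD, n = 3) above 16.1 ± 1.84 in shNC (SD, n = 3). The ratio was 1.37 and the log2 fold change 0.45 (SE 0.11). A noncoding gene on the same strand overlaps FAH, and reads shared with it cannot be seen in the counts.

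A gene was called when its log2 fold change exceeded 1 in size at an unadjusted p below 0.05, the thresholds of the study read on the log2 scale. By edgeR these called HGD lower and none of HPD, FAH and GSTZ1 in either direction, 1 of the 4 genes tested. Over all genes tested, 13.6% were called, 9.41% as higher and 4.16% as lower. For 3 of the 4 genes the shNC and shNUF2 libraries were fully separated, where 70.6% of all genes tested showed the same. The median log2 fold change of the 4 was -0.41. Since HGD was chosen on this contrast, these shares are descriptive. Of the 4, GSTZ1 and HGD were lower with shNUF2, FAH was higher and HPD overlapped between the groups. Of all genes tested, 35.2% had shNUF2 fully above shNC and 35.4% fully below.

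Levels of different genes were compared per length, on the deposited FPKM scale. With shNC the order of mean levels was HGD at 3.80, FAH at 2.27, GSTZ1 at 0.786, HPD at 0.358 and TAT at 0 FPKM, and in the 3 libraries each gene lay above the next without overlap. With shNUF2 it was FAH at 3.02, GSTZ1 at 0.401, HPD at 0.365, HGD at 0.253 and TAT at 0.0321 FPKM. GSTZ1 and HPD overlapped there, as did HPD and HGD. HGD thus went from the first to the fourth place. In shNC its mean level exceeded that of 38.3% of the genes tested, and in shNUF2 that of 4.03%.

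**Figure D1:**
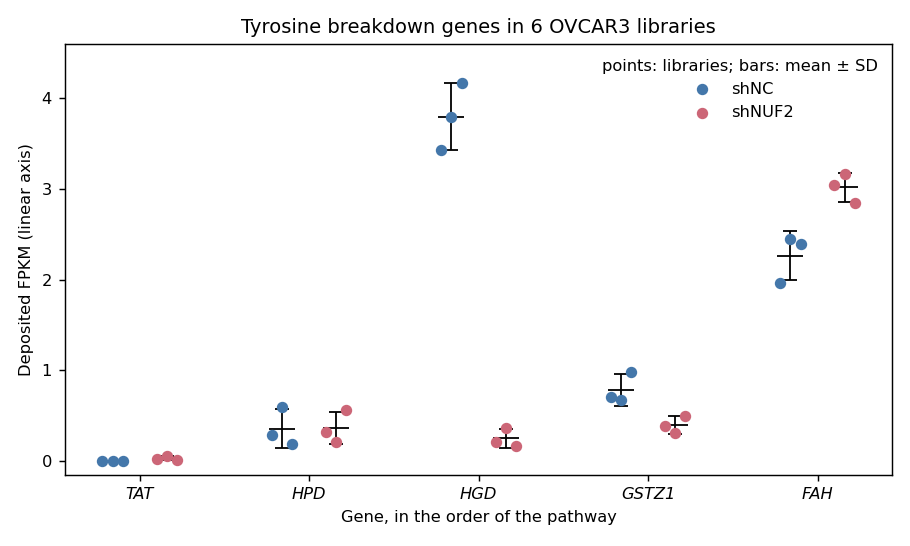
Deposited FPKM (linear y axis) of TAT, HPD, HGD, GSTZ1 and FAH in the order of the chain, with points for the 3 shNC and 3 shNUF2 libraries and bars for mean ± SD. HGD lies between 3.43 and 4.17 FPKM with shNC and between 0.171 and 0.371 with shNUF2, while FAH is higher with shNUF2.

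The first place of HGD with shNC rested on the gene length that was used. The deposited length is 8365 bases for GSTZ1 and 7203 for FAH, against 979 and 2152 bases for their main coding transcripts, GSTZ1-207 and FAH-202, while for HGD it is 2682 against 2005 bases. Divided by these transcript lengths, in a comparison added after the data had been seen, shNC levels were 7.59 ± 0.901 CPM per kilobase for FAH, 6.71 ± 1.48 for GSTZ1 and 5.08 ± 0.491 for HGD (SD, n = 3). HGD was then in the third place, and FAH and GSTZ1 overlapped. With shNUF2 HGD stayed in the fourth place on either length, at 0.338 ± 0.140 by transcript length (SD, n = 3), below HPD at 0.571 ± 0.283 (SD, n = 3), with overlap.

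To see whether the region around HGD moved as a whole, the 5 listed genes on each side were examined, of which 9 of 10 were tested (ARGFX, a homeobox gene, had 0 reads). RABL3, a small GTPase gene on the same strand that lies 2669 bases from HGD, fell with a log2 fold change of -1.07 (SE 0.11, edgeR adjusted p = 4.35e-09). It had 294, 382 and 345 reads under shNC, against 138, 130 and 157 under shNUF2. RABL3 was the one neighbour past both thresholds (11.1% of the 9 tested, near the 13.6% of all genes tested), and its value was -0.99 without shNC replicate 2. GTF2E1, a subunit of the general transcription factor TFIIE, fell slightly (-0.28, SE 0.09, adjusted p = 0.011).

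On the other side, NDUFB4, a subunit of respiratory complex I located 25665 bases from HGD, had a log2 fold change of -0.12 (SE 0.07, adjusted p = 0.118), and passed the adjusted threshold without shNC replicate 1 (-0.19), with library totals only (-0.15) or with no filter on low counts (-0.14). Beyond it, FSTL1 (a secreted glycoprotein; 0.16, SE 0.04), LRRC58 (0.40, SE 0.04) and the kinase gene GSK3B (0.59, SE 0.05) rose, with adjusted p from 1.06e-10 to 0.00282 by edgeR. FSTL1 no longer passed with limma on log2(FPKM + 1) or log2(FPKM + 0.1), at 0.12 in both. The DNA polymerase gene POLQ (0.14, SE 0.07) and STXBP5L (-0.73, SE 0.49), on the side of RABL3, did not pass, except that STXBP5L did so without shNUF2 replicate 2, where its value was -1.48. The median of the 9 neighbours was 0.01.

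**Figure D2:**
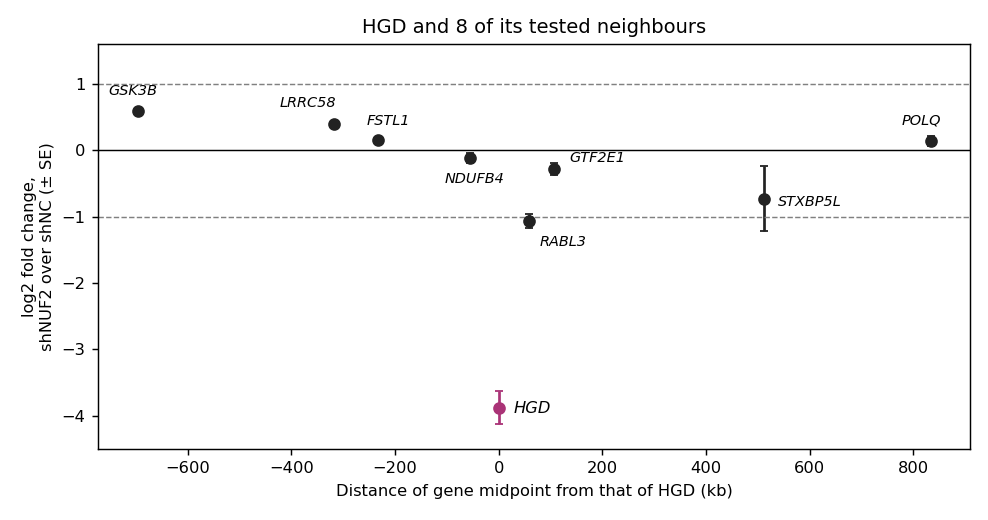
Log2 fold change (shNUF2 over shNC, with SE) of HGD and 8 of its 9 tested neighbours against the distance between gene midpoints in kilobases; dashed lines mark 1 and -1. HGD, which was picked for its difference, is at -3.88, and RABL3 at -1.07 is the lowest of the neighbours shown.

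The genes whose pattern over the 6 libraries was nearest to that of HGD were MAP2K6, SPINK5, SLC6A9, SLC12A3 and CHAC1. The measure was the root mean square difference in log2 CPM after each gene was centred on its shNC mean, which was 0.29 for MAP2K6, 0.47 for SPINK5 and SLC6A9, 0.48 for SLC12A3 and 0.51 for CHAC1, against a median of 2.62 over the genes tested. With only 2 groups this measure mainly selects genes with a similar fold. MAP2K6, a kinase that activates p38, went from 654 ± 29.7 to 53.5 ± 4.85 CPM (SD, n = 3 each), a log2 fold change of -3.61 (SE 0.06). SLC12A3, the thiazide-sensitive sodium chloride cotransporter of the kidney, went from 75.7 ± 1.56 to 8.72 ± 0.881 CPM (SD, n = 3 each; log2 fold change -3.12, SE 0.08). CHAC1, which degrades glutathione, went from 25.1 ± 1.66 to 3.00 ± 0.634 CPM (SD, n = 3 each; -3.06, SE 0.15). The protease inhibitor SPINK5 and the glycine transporter SLC6A9 had log2 fold changes of -3.15 (SE 0.06) and -3.25 (SE 0.08). These genes were selected for their likeness to HGD, and the seed match of the hairpin occurred 0 times in their main coding transcripts.

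**Figure D3:**
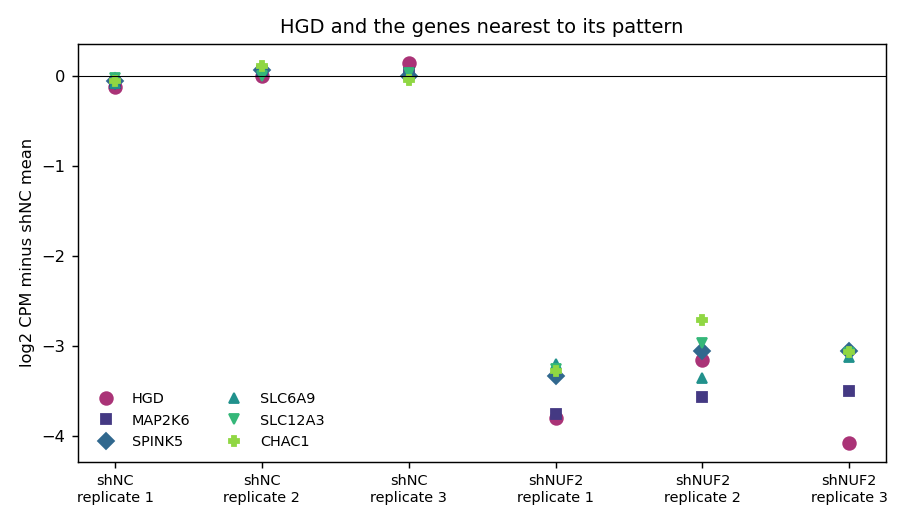
Log2 CPM minus the shNC mean (y axis) in each of the 6 libraries (x axis) for HGD and the 5 genes nearest to its pattern. HGD reached -3.80, -3.16 and -4.08 in shNUF2 replicates 1, 2 and 3, a wider spread than that of MAP2K6, at -3.76, -3.57 and -3.50.

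A wider list held 47 genes that supply tyrosine, use it elsewhere, carry it across membranes, take up the end products or are paralogs of the chain. Of these, 37 were tested, and 10 passed both thresholds (27.0%, against 13.6% of all genes tested), 4 higher and 6 lower. By adjusted p alone, 10 rose and 17 fell with shNUF2 (73.0%, against 67.6% of all genes tested), and their median log2 fold change was -0.30. Each of the 6 groups that make up this list held members with values in both directions.

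Tetrahydrobiopterin is the cofactor with which cells hydroxylate aromatic amino acids. PCBD2, which helps to regenerate the cofactor, fell from 19.5 ± 1.21 to 8.76 ± 1.16 CPM (SD, n = 3 each), with a log2 fold change of -1.15 (SE 0.12, edgeR adjusted p = 4.71e-09). The 3 enzymes that build the cofactor, GCH1, PTS and SPR, rose by 0.36 (SE 0.11), 0.43 (SE 0.09) and 0.34 (SE 0.09) on the log2 scale, with adjusted p of 0.00566, 0.000173 and 0.00144 by edgeR. The recycling enzyme QDPR was at 0.00 (SE 0.10) and PCBD1 at -0.05 (SE 0.06), neither past the test. In all, 6 of the 8 genes were tested, with a median of 0.17, and 4 of the 6 passed by adjusted p (66.7%, near the 67.6% of all genes tested).

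Other enzymes can remove the amino group of tyrosine where TAT is low. GOT1, the cytosolic aspartate aminotransferase, had 564, 723 and 698 reads under shNC, against 259, 264 and 308 under shNUF2, and fell by 1.06 on the log2 scale (SE 0.08, edgeR adjusted p = 1.84e-11). Its mitochondrial counterpart GOT2 fell by 0.30 (SE 0.05, adjusted p = 2.3e-06). IL4I1, a secreted oxidase of aromatic amino acids, had 6, 0 and 18 reads under shNC, against 46, 41 and 63 under shNUF2. All shNUF2 libraries lay above all shNC libraries, with a log2 fold change of 2.82 (SE 0.45, adjusted p = 4.29e-06), which became 4.11 without shNC replicate 3 and 2.23 without shNC replicate 2. KYAT3 (-0.24, SE 0.14) and AADAT (-0.34, SE 0.17) did not pass the test.

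Of the genes for other fates of tyrosine, 5 of 11 were tested. The monoamine oxidase MAOB had 1148, 1288 and 1407 reads under shNC, against 435, 415 and 459 under shNUF2, a log2 fold change of -1.36 (SE 0.06, edgeR adjusted p = 1.66e-16). Its paralog MAOA, at 0.377 FPKM with shNC against 28.3 for MAOB, rose by 0.96 (SE 0.26, adjusted p = 0.0018). Tyrosine hydroxylase (TH), the first enzyme of catecholamine synthesis, had 1, 3 and 8 reads under shNC, against 12, 24 and 17 under shNUF2, a log2 fold change of 2.31 (SE 0.55, adjusted p = 0.000553), and of 3.19 without shNC replicate 3. TYR, which starts pigment synthesis from tyrosine, had 0 reads in every library.

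Among 6 paralogs of the chain, GSTO1, a glutathione transferase of the omega class, rose from 49.6 ± 1.58 to 101 ± 2.58 CPM (SD, n = 3 each), with a log2 fold change of 1.03 (SE 0.05, edgeR adjusted p = 4.95e-15). It was 0.99 when counts were scaled by library totals only. GSTO2 fell by 1.00 on the log2 scale (SE 0.13, adjusted p = 9.3e-08), just short of the fold threshold. HPDL, the paralog of HPD, had 352, 441 and 462 reads under shNC, against 280, 274 and 288 under shNUF2, and fell by 0.38 on the log2 scale (SE 0.09, adjusted p = 0.000763). Its level with shNUF2 was 11.2 ± 0.591 FPKM (SD, n = 3), against 0.365 ± 0.180 for HPD (SD, n = 3). FAHD2A (-0.57, SE 0.08) and FAHD2B (-0.45, SE 0.07), close copies of each other between which reads could have been split, also fell, while FAHD1 was at 0.03 (SE 0.08).

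None of the 9 genes for the use of fumarate and acetoacetate passed both thresholds, where 13.6% of all genes tested did. By adjusted p 5 fell and 1 rose, where 33.8% of all genes tested fell and 33.9% rose. In all 66.7% passed by adjusted p, near the 67.6% of all genes tested. OXCT1, which activates acetoacetate for oxidation, had 4288, 5135 and 5378 reads under shNC, against 2068, 2359 and 2376 under shNUF2, a log2 fold change of -0.93 (SE 0.05, edgeR adjusted p = 1.56e-14). FH, the fumarase, fell by 0.70 on the log2 scale (SE 0.05, adjusted p = 4.87e-12). The cytosolic acetoacetyl-CoA synthetase AACS fell by 0.54 (SE 0.06), the thiolase ACAT1 by 0.49 (SE 0.08) and the malate dehydrogenase MDH1 by 0.32 (SE 0.05). OXCT2, with 14 to 46 reads per library, was the gene that rose (0.95, SE 0.35, edgeR adjusted p = 0.0206), although its groups overlapped.

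Of 7 transporters of tyrosine and other large neutral amino acids, 6 were tested, and by adjusted p 3 fell and 2 rose, where 33.8% of all genes tested fell and 33.9% rose. SLC7A5 and its partner SLC3A2, which form the LAT1 exchanger, fell from 3490 ± 79.2 to 1090 ± 49.8 CPM and from 1330 ± 49.2 to 375 ± 13.4 CPM (SD, n = 3 each). Their log2 fold changes were -1.68 (SE 0.04) and -1.83 (SE 0.04), with edgeR adjusted p of 4.25e-22 and 1.82e-22. SLC43A1 fell by 1.32 on the log2 scale (SE 0.13, adjusted p = 1.35e-09). SLC7A8, which encodes the related LAT2 exchanger, had 40, 43 and 32 reads under shNC, against 274, 275 and 302 under shNUF2, a log2 fold change of 3.07 (SE 0.16, adjusted p = 1.9e-15). SLC16A10, which is also known as an aromatic amino acid transporter, had 0 reads in every library.

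Breakdown pathways of other amino acids were compared with the tyrosine chain through 46 genes, of which 35 were tested. Both thresholds were passed by 3 higher and 1 lower gene, 11.4% of those tested against 13.6% of all genes. By adjusted p 5 rose and 21 fell (74.3% in all, against 67.6% of all genes tested, of which 33.9% rose and 33.8% fell). The median log2 fold change was -0.47 and the lowest -1.54, that of HAL, which starts histidine breakdown. HAL had 72, 95 and 83 reads under shNC, against 30, 26 and 19 under shNUF2 (SE 0.25, edgeR adjusted p = 5.88e-06). HGD, at -3.88, was picked for its difference in this contrast, so its lower value was set in advance.

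Of the genes for branched-chain amino acid breakdown, 18 of 20 were tested. Of these, 13 fell and 1 rose by adjusted p, each by less than 1 on the log2 scale, where 33.8% of all genes tested fell. The median was -0.54. HIBADH, an enzyme of valine breakdown, fell from 133 ± 0.365 to 76.8 ± 0.924 CPM (SD, n = 3 each; log2 fold change -0.80, SE 0.05, edgeR adjusted p = 5.63e-14). The kinase BCKDK, which inhibits the pathway, was the gene that rose (0.40, SE 0.06, adjusted p = 2.19e-06). In lysine breakdown 5 of 6 genes fell, most of all DHTKD1 (-0.92, SE 0.08, adjusted p = 1.11e-10).

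In tryptophan breakdown 4 of 9 genes were tested. KMO, with 8, 5 and 8 reads under shNC, against 26, 25 and 23 under shNUF2, rose by 1.99 on the log2 scale (SE 0.41, edgeR adjusted p = 0.00012). QPRT rose by 1.07 (SE 0.34, adjusted p = 0.00671), a call that was lost without shNC replicate 3 (0.74). KYNU, the kynureninase, fell by 0.68 (SE 0.05, adjusted p = 3.21e-12). Among glycine and proline enzymes, the proline dehydrogenase PRODH had 8, 3 and 17 reads under shNC, against 33, 20 and 33 under shNUF2 and rose by 1.80 (SE 0.42, adjusted p = 0.000532), or by 2.46 without shNC replicate 3. ALDH4A1, the next enzyme after PRODH, fell by 0.95 on the log2 scale (SE 0.13, adjusted p = 2.21e-07).

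**Figure D4:**
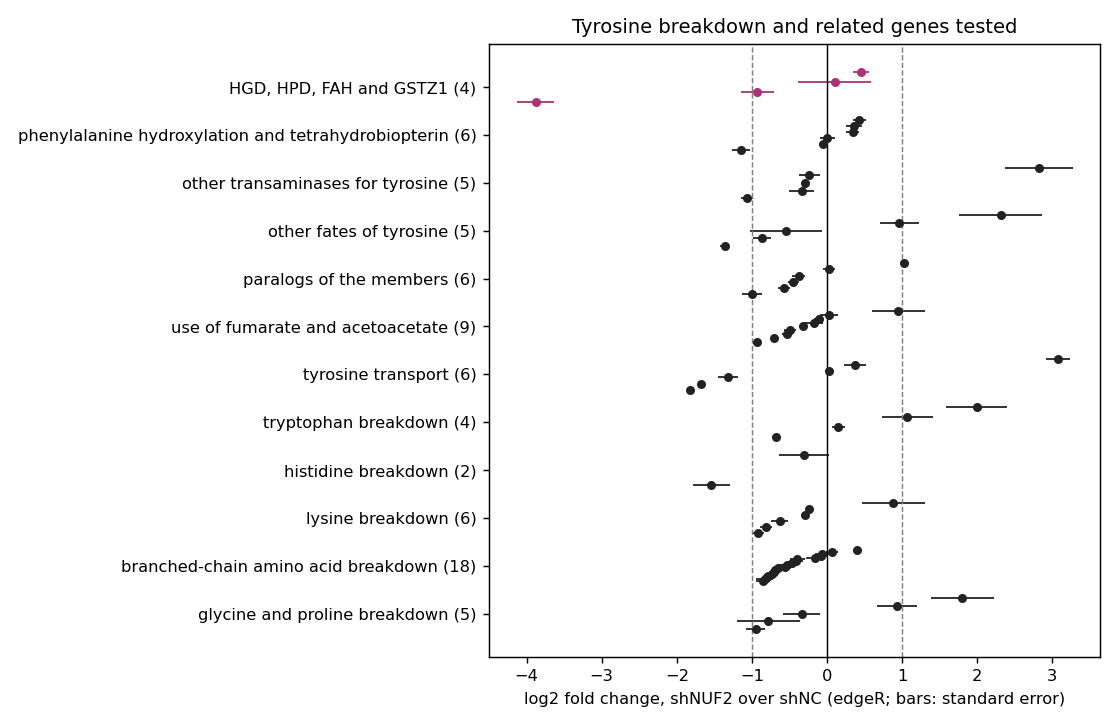
Log2 fold change (shNUF2 over shNC, x axis, with SE as bars) of every tested gene of the tyrosine chain (purple) and of the related lists (black), with the number tested in parentheses; dashed lines mark 1 and -1. HGD, which was picked for its difference, is the lowest point at -3.88, and SLC7A8 at 3.07 is the highest.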

How the data were processed

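Libraries were made with a strand-specific mRNA kit and sequenced on an Illumina NovaSeq. Per the labels, the submitters' processing notes name cutadapt, HISAT, HTSeq and GRCh38.p13; versions, annotation release and strand setting are not given in the sources used here. The authors deposited unnormalized read counts per gene and FPKM values, which equal count per deposited gene length and library total to a relative deviation of 2.71e-07. The counts went into edgeR 4.0.16 under R 4.3.3 (filterByExpr, TMM, quasi-likelihood test, no covariate, all 6 libraries), leaving 12874 genes, with Benjamini-Hochberg adjustment over all of them. "Adjusted p" passed under 0.05. SE is the fold change divided by the root of F. DESeq2 1.42.0 and limma 3.58.1 served as alternatives. On simulated counts, edgeR recovered 192 of 193 changed genes with 2 false calls among 12482. The simulation changed few genes, all beyond the fold threshold, with the same dispersion for every gene, and scored calls by adjusted p with that threshold. It therefore gives no error rate for the calls made here at unadjusted p.

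The members and gene lists were chosen with earlier results of these data known. Genes named are the members, NUF2, list genes past both thresholds (or with the smallest p where fewer than 2 passed), the neighbours and the 5 genes most like HGD. Other genes named were chosen after their values were seen. Same-numbered libraries did not deviate together (correlations 0.02, 0.00 and -0.03). Some genes of these lists count in the totals but are not reported here by name.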

Additional observations from a re-analysis of the deposited data

How the results depend on the processing

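HGD was lower with shNUF2 under every alternative that gave a value. It was -1.94 with limma on log2(FPKM + 1) and -3.50 on log2(FPKM + 0.1), scales that by construction understate changes of low genes, and -4.24 to -3.66 with each library left out. A minimum of 1 CPM in every library removes HGD. With that minimum, 2 wider tyrosine genes, 0 other breakdown genes and 756 of all genes were called higher. With limma on log2(FPKM + 1) these counts were 2, 0 and 430, against 4, 3 and 1212 as reported; 0 other breakdown genes and 0 neighbours of HGD were called lower (1 each as reported), and 206 of all genes (536 as reported). With each library left out, the wider tyrosine counts were 4 to 5 higher and 6 to 7 lower, the other breakdown counts 2 to 4 and 1 to 2, the neighbours 0 to 0 and 0 to 2, and all genes 1198 to 1332 and 534 to 581. The second lower call among other breakdown genes was HOGA1, without shNC replicate 2, and the neighbour counts of 0 and 2 came without shNC replicate 2 (RABL3 at -0.99) and without shNUF2 replicate 2 (STXBP5L at -1.48). With the replicate number as a block, HGD was at -3.88, and the labels do not say that numbers pair libraries; it changed no call at adjusted p of a gene named by rule. On log2(FPKM + 1), FAH was at 0.30 and GSTZ1 at -0.35. Few reads per library limit the precision for HPD, TAT, TH, KMO and HGD with shNUF2.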

Other observations

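Among 13 transcription factors known from liver and kidney tubule, 7 were tested, of which 4 fell and 2 rose with shNUF2 by edgeR's adjusted p, where 33.8% of all genes tested fell and 33.9% rose. CEBPA had 210, 284 and 306 reads under shNC, against 75, 72 and 113 under shNUF2, a log2 fold change of -1.43 (SE 0.14, edgeR adjusted p = 1.63e-09), and was the one past both thresholds (14.3% of the 7 tested, near the 13.6% of all genes tested). HNF4A had 1131, 1066 and 1218 reads under shNC, against 616, 600 and 648 under shNUF2 (-0.68, SE 0.07, adjusted p = 1.15e-09). HNF4G (-0.62, SE 0.19) and FOXA1 (-0.33, SE 0.13) also fell, whereas CEBPB (0.53, SE 0.10) and the glucocorticoid receptor NR3C1 (0.16, SE 0.05) rose. FOXA2, ONECUT1 and PROX1 had 0 reads in every library. The part of these factors in the level of HGD was not tested.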
